A study of Homo sapiens with 9 samples.

Results

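AXL, MERTK and TYRO3 form the TAM family of receptor tyrosine kinases, and GAS6 and PROS1 (protein S) are their ligands. The 5 genes were taken by symbol from a table of 24069 rows. Each matched 1 row of its own, and none fell in a locus combined with another gene. Expression was measured by RNA sequencing in 9 libraries of LC-2/ad, a cell line from a human lung adenocarcinoma with a CCDC6-RET fusion, and of cells derived from it. The resistant derivatives PR2 and PR1 were kept in 200 nM ponatinib, a multi-kinase inhibitor that also blocks RET, and the remaining group was the parental line, for which no drug is stated. Resistance and exposure to the drug could therefore not be told apart in any comparison with parental cells. There were 3 libraries in each group, named by the letters A, B and C. Whether the letters are separate cultures, or a derivative 1 clone, is not stated, so p-values reflect the spread of these libraries alone, and it may be technical.

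TAM receptors sit at the cell surface and are activated by GAS6 or protein S, which bridge the receptor to phosphatidylserine on the outside of dying cells, shed membranes and stressed cells. Both ligands carry a Gla domain whose glutamates are carboxylated in a vitamin K-dependent step, and that domain binds the phosphatidylserine. GAS6 activates all of the TAM receptors, whereas protein S is known as a ligand of TYRO3 and MERTK and also circulates as an anticoagulant cofactor. AXL is known in lung cancer for its association with acquired resistance to kinase inhibitors and with mesenchymal traits, MERTK for the uptake of apoptotic cells by macrophages, and TYRO3 for its expression in the nervous system.

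Expression is given in FPKM, a fragment count corrected for the length of the transcript and the size of the library, which allows levels of different genes to be compared. The unit is inferred, since the header of the table names none. Column sums ran from 571570 to 686460, and 11263 to 11629 rows reached 1 FPKM. Low values gave relative depths of 0.763 to 1, with parental A the deepest library, but the number of reads is not given in the sources used here. Log values correlated across genes at 0.961 to 0.985 within groups and at 0.883 to 0.949 between groups. The epithelial genes EPCAM and KRT7 were high in every group, at 377 ± 7.81 and 3328 ± 310 FPKM in PR2, 379 ± 41.8 and 1620 ± 430 in PR1 and 316 ± 32.3 and 1526 ± 286 in parental cells (SD, n = 3). The lung factor gene NKX2-1 stood at 73.7 ± 9.14 FPKM in PR2, 126 ± 32.8 in PR1 and 66.3 ± 13.2 in parental cells. Of 10 macrophage and blood cell markers with rows of their own, only CD14 passed the filter on low values, and the summed level of all 10 was 0.925 to 1.63 FPKM in PR2, 1.26 to 1.87 in PR1 and 3.78 to 9.32 in parental cells. PTPRC, the pan-leukocyte gene CD45, stayed under 0.02 FPKM on average in each group. The summed fibroblast markers were at 13.96 to 17.8 FPKM in PR2, 11.2 to 17.2 in PR1 and 10.3 to 17.8 in parental cells, and 3 of 10 passed the filter. The summed endothelial markers were at 0.682 to 3.80 FPKM in PR2, 2.37 to 7.92 in PR1 and 2.66 to 3.79 in parental cells, and 1 of 6 passed, KDR. The macrophage sum was lower in every derivative library than in every parental one and was carried by CD14, at 0.876 FPKM in PR2, 1.34 in PR1 and 6.17 in parental cells. CSF1R, the highest of the others in PR2, was at 0.206 FPKM in PR2, 0.0167 in PR1 and 0.0983 in parental cells. CD14 fell by 1.86 in PR2 and fell by 1.55 in PR1 on the log2 scale (limma adjusted p = 0.00070 and 0.0033). Of 13 lung and epithelial markers tested, 1 rose and 6 fell in PR2 (13.6% and 9.83% of all rows tested), 2 rose and 2 fell in PR1 (7.56% and 7.98%), and 1 was higher and 6 lower in PR2 against PR1 (11.0% and 8.92%). Without parental B the PR1 counts were 1 and 1. The marker that rose in PR2 was KRT7, with a log2 difference of 1.14. The largest falls there were those of SFTPB (−6.08), CEACAM5 (−6.04), SLC34A2 (−3.66) and CEACAM6 (−2.31). In PR1 the largest fall was that of SFTPB (−3.598) and the largest rise that of NAPSA (1.85). SFTPC is listed at 0 in PR2 and parental cells. Of the fibroblast markers 1 fell in PR2, a call lost without 4 single libraries, and none was called elsewhere, and KDR was not called. The part of these markers in the results was not tested.

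The sequences just upstream of the 4 genes that were higher in PR2 are shown first, since any shared letters there are of interest for genes that move together. They are the 250 bases before the RefSeq start on GRCh38.p14, a later build than that of the expression table, 5′ to 3′ on the gene's own strand. AXL lies on the plus strand at chr19:41218973-41219222, GAS6 on the minus strand at chr13:113864077-113864326, PROS1 on the minus strand at chr3:93973897-93974146 and MERTK on the plus strand at chr2:111898357-111898606. Capitals mark matches to the GC box GGGCGG, the letters that SP1 family factors bind, on either strand.
AXL: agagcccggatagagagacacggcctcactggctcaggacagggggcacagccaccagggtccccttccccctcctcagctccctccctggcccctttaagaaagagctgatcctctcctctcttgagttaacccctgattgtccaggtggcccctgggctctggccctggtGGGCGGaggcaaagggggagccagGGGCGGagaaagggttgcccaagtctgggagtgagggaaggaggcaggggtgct
GAS6: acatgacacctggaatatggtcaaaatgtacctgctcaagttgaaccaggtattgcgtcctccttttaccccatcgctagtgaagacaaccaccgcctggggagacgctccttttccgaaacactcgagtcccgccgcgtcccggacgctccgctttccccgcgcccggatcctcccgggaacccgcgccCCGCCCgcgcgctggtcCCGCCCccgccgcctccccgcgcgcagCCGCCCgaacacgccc
PROS1: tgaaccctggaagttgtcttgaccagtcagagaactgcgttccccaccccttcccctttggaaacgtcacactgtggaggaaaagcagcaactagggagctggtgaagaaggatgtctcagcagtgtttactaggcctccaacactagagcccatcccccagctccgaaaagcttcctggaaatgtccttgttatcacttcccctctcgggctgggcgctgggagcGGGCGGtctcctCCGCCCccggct
MERTK: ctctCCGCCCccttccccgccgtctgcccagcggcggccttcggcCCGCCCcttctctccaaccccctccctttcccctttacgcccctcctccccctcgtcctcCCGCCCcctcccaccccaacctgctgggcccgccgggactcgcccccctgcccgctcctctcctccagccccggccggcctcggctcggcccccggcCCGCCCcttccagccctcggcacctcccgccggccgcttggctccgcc
The GC box occurred at 2 places in the AXL window, 78 and 54 bases before the start, at 3 in GAS6, at 2 in PROS1 and at 4 in MERTK. It is a common motif, present in 42.6% of 35116 windows of that length. The TYRO3 window, not printed, also held 3. TGANTCA, a loose form of the AP-1 motif with any base in the middle, was found in 6.57% of all windows. Among the first windows of these genes it was in TYRO3 only, as TGAATCA, 220 bases before its start. GGAATG, the TEAD motif, was found in 11.9% and ACGTG, the hypoxia response core, in 18.5%, and neither was in the first window of any of the 5 genes. RefSeq lists a second, downstream start for AXL, and that window held 1 match to GGAATG and 2 to ACGTG. No match says only that these letters are not in this window. GC content was 64.4% for AXL, 66.8% for GAS6, 57.6% for PROS1, 78.8% for MERTK and 80% for TYRO3.

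AXL had the largest change of the receptors. It was measured at 106, 68.1 and 70.5 FPKM in the PR2 libraries A, B and C, at 53.8, 34.7 and 27.9 in the PR1 libraries, and at 3.36, 0.748 and 0.734 in the parental libraries. All libraries of PR2 were above all of PR1, and all of PR1 above all parental ones, of which A was the highest. Relative to all rows of a library, AXL stood at the 94.9th to 96.6th percentile in PR2, the 87.3rd to 92.4th in PR1 and the 49.9th to 61.1st in parental cells. Groups were compared on log2(FPKM + 1) with limma, fitted to all 9 libraries, and a gene was called changed at a Benjamini-Hochberg adjusted p under 0.05 over the 12011 rows that reached 1 FPKM in at least 3 libraries. AXL rose by a log2 of 5.10 ± 0.37 (SE) in PR2 and 4.02 ± 0.37 in PR1 against parental cells (limma adjusted p = 1.42e-05 and 0.00012). Of the 12011 rows, AXL ranked 1 by log2 difference in PR2 and 4 in PR1. In bulk RNA, more cells with AXL and more AXL RNA per cell cannot be told apart.

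The ratio of AXL means was 50.5 for PR2 and 24.04 for PR1 over parental cells. Parental A weighed on both: library by library within a letter, the ratio was 31.6 (A), 91.0 (B) and 96.1 (C) for PR2 and 16.0, 46.3 and 38.0 for PR1. PR2 exceeded PR1 by 1.97, 1.96 and 2.53 times in A, B and C. This AXL difference of 1.08 ± 0.37 on the log2 scale missed the threshold without pairing (limma adjusted p = 0.067, 95% interval 0.25 to 1.90) and passed with the letter as a block (limma adjusted p = 0.0025).

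MERTK, the receptor of apoptotic cell uptake, was low and rose by less. Its values were 3.56, 6.36 and 8.14 FPKM in PR2 A, B and C, 1.75, 3.52 and 4.06 in PR1 and 0.972, 1.21 and 2.09 in parental cells. The PR2 libraries lay above all parental libraries, while PR1 overlapped both other groups. MERTK rose by a log2 of 1.50 ± 0.30 in PR2 (limma adjusted p = 0.0057). Its log2 difference was 0.74 ± 0.30 in PR1 and 0.76 ± 0.30 for PR2 over PR1, neither past the threshold (limma adjusted p = 0.13 and 0.11). Both passed with the letter as a block (limma adjusted p = 0.0062 and 0.0048), since within a letter the ratio was 1.80, 2.92 and 1.95 for PR1 over parental cells and 2.03, 1.81 and 2.00 for PR2 over PR1.

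TYRO3, the remaining receptor, had 4.80, 3.51 and 2.87 FPKM in PR2, 4.50, 2.35 and 2.53 in PR1 and 3.66, 3.19 and 3.05 in parental cells, so that all groups overlapped. Its log2 difference was 0.12 in PR2 (95% interval −0.36 to 0.60) and −0.09 in PR1 (−0.58 to 0.39) against parental cells, and 0.21 between PR2 and PR1 (−0.27 to 0.69). None passed (limma adjusted p = 0.73, 0.82 and 0.54). Against parental cells the TYRO3 intervals lay below those of AXL (4.27 to 5.92 in PR2 and 3.20 to 4.84 in PR1), while in PR2 against PR1 the intervals of both genes overlapped.

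**Figure D1:**
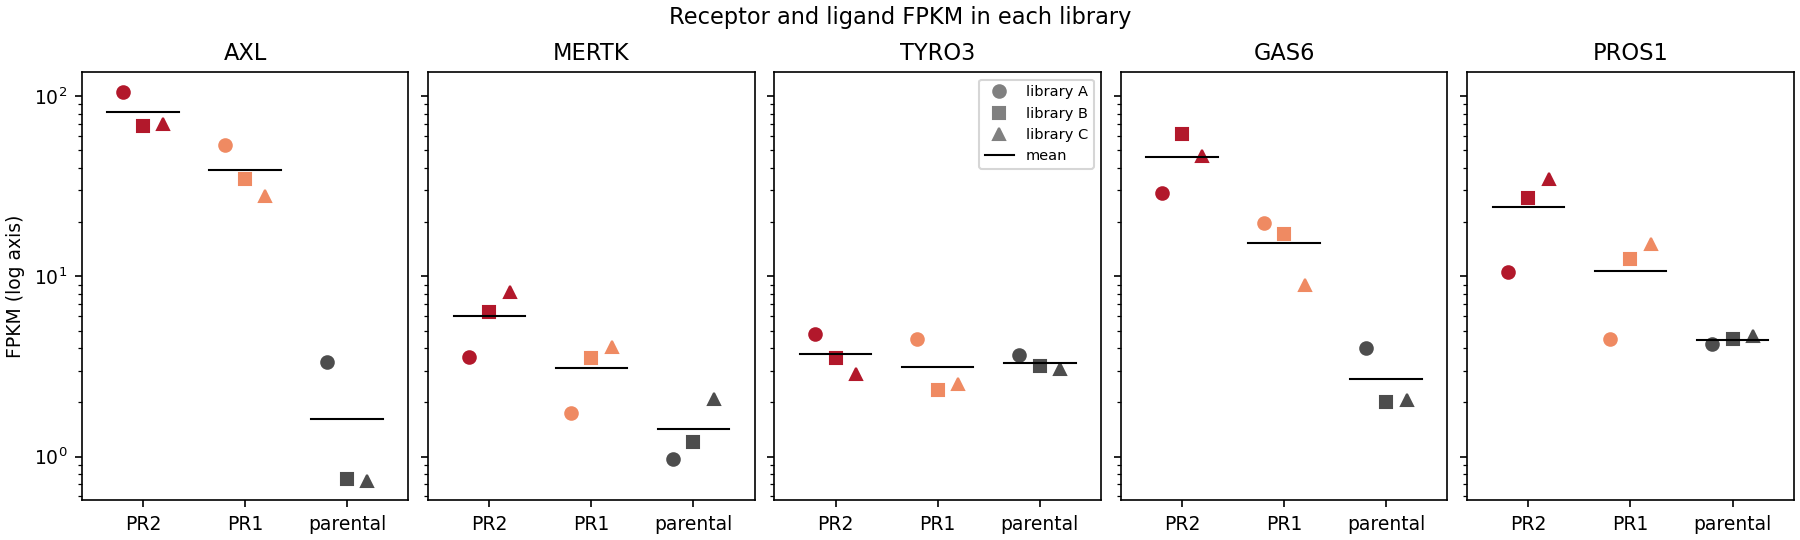
FPKM of the receptors AXL, MERTK and TYRO3 and the ligands GAS6 and PROS1 in each library (log axis), by group, with circles, squares and triangles for libraries A, B and C and a line at the group mean. AXL and GAS6 separate all 3 groups, TYRO3 separates none, and the A library is the lowest of its group for MERTK and PROS1 throughout.

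The make-up of the TAM receptor pool differed accordingly. AXL gave 92.7%, 87.3% and 86.5% of the summed receptor FPKM in PR2 A, B and C, 89.6%, 85.5% and 80.9% in PR1 and 42.0%, 14.5% and 12.5% in parental cells. TYRO3 was the most abundant of the receptors in each parental library, at 45.8%, 62.0% and 51.9% of the sum, and gave 3.52% to 4.50% in PR2 and 5.79% to 7.50% in PR1. The summed level itself was 114, 78.0 and 81.6 FPKM in PR2, 60.0, 40.5 and 34.5 in PR1 and 7.99, 5.15 and 5.87 in parental cells. Shares are within a library and do not depend on its scaling.

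GAS6, the ligand of all of these receptors, was measured at 28.9, 61.6 and 46.7 FPKM in PR2 A, B and C, 19.8, 17.3 and 8.92 in PR1 and 3.99, 2.01 and 2.07 in parental cells. As with AXL, no libraries of different groups overlapped. GAS6 rose by a log2 of 3.64 ± 0.34 in PR2 and 2.12 ± 0.34 in PR1 (limma adjusted p = 6.81e-05 and 0.0028), ranking 17 and 42 of 12011. It was higher in PR2 than in PR1 by 1.52 ± 0.34 (limma adjusted p = 0.012). That difference varied with the library: PR2 over PR1 was 1.46 times in A, 3.56 in B and 5.23 in C.

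PROS1, which encodes protein S, was at 10.6, 27.4 and 34.7 FPKM in PR2 A, B and C, 4.47, 12.6 and 15.2 in PR1 and 4.22, 4.47 and 4.64 in parental cells. PR2 lay above all parental libraries, and PR1 A was within the parental range while PR1 B and C were above it. PROS1 rose by a log2 of 2.06 ± 0.45 in PR2 (limma adjusted p = 0.0090). Its log2 difference was 0.97 ± 0.45 in PR1 and 1.10 ± 0.45 for PR2 over PR1 (limma adjusted p = 0.19 and 0.12), and both passed with the letter as a block (limma adjusted p = 0.036 and 0.019). Without PR1 A the PR1 value was 1.45 (limma adjusted p = 0.047). Within a letter PROS1 in PR1 was 1.06 times the parental level in A, 2.81 in B and 3.27 in C, whereas PR2 over PR1 was 2.37, 2.18 and 2.29. PROS1 has a near-identical pseudogene, PROS2P, and the authors' quantification may split reads between them.

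**Figure D2:**
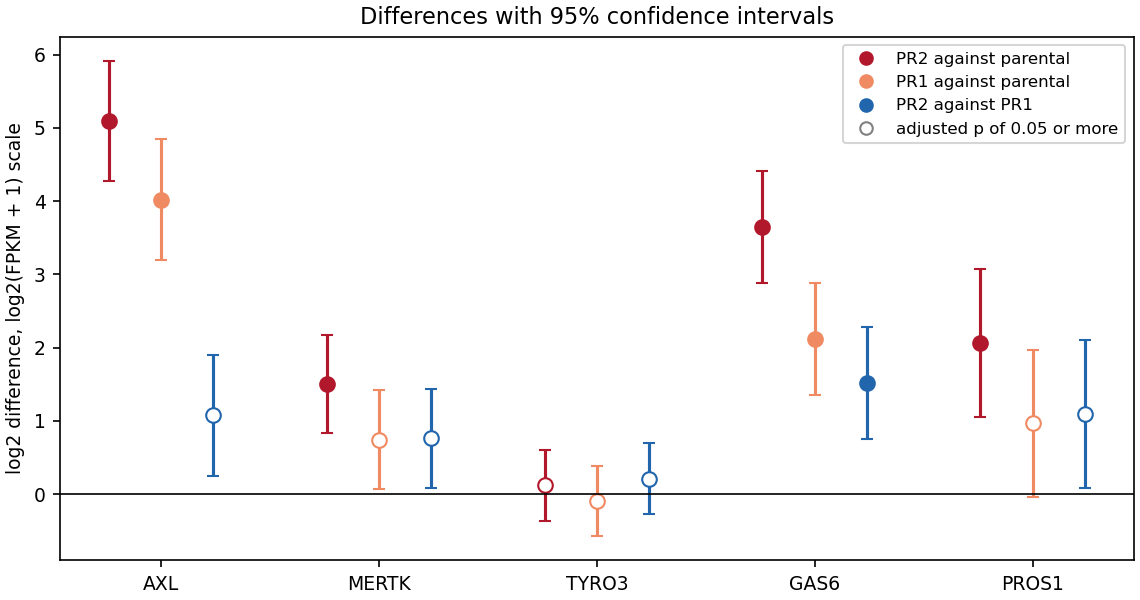
Log2 differences on the log2(FPKM + 1) scale from limma with 95% confidence intervals for PR2 and PR1 over parental cells and for PR2 over PR1, with filled points for an adjusted p under 0.05. AXL and GAS6 are filled in both comparisons with parental cells, MERTK and PROS1 in PR2 against parental cells, and TYRO3 in none.

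Counted together, 4 of the 5 genes were higher in PR2 than in parental cells and none was lower, against 13.6% of all rows tested higher and 9.83% lower. In PR1 against parental cells 2 were higher and none lower, against 7.56% higher and 7.98% lower. In PR2 against PR1 1 was higher and none lower, against 11.0% higher and 8.92% lower. With the letter as a block these last counts were 4 and 4, where 13.4% and 17.1% of all rows were higher, since MERTK and PROS1 joined in the first and AXL, MERTK and PROS1 in the second. Every PR2 library was above every parental library for 4 of the genes (22.3% of all rows, with 17.6% below), every PR1 library above every parental library for 2 (16.6%, with 15.0% below) and every PR2 library above every PR1 library for 2 (20.4%, with 18.2% below). The median log2 difference of the 5 was 2.06 in PR2 and 0.97 in PR1 against parental cells and 1.08 in PR2 against PR1, where the median of all rows was 0.03, 0.05 and 0.0038. The comparisons with parental cells share the same parental libraries. The 5 genes were chosen with earlier results of these data known, so their counts beside those of all rows are a description only.

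In levels, the order in PR2 was AXL at 81.5 ± 21.2 FPKM, GAS6 at 45.7 ± 16.3, PROS1 at 24.2 ± 12.4, MERTK at 6.02 ± 2.31 and TYRO3 at 3.73 ± 0.98 (SD, n = 3). In PR1 the means were AXL at 38.8 ± 13.4, GAS6 at 15.3 ± 5.69, PROS1 at 10.7 ± 5.58 and TYRO3 and MERTK nearly level at 3.13 ± 1.20 and 3.11 ± 1.21. In parental cells PROS1 led at 4.44 ± 0.21 FPKM, then TYRO3 at 3.30 ± 0.32, GAS6 at 2.69 ± 1.13, AXL at 1.61 ± 1.51 and MERTK at 1.42 ± 0.59. Neighbours in these orders whose libraries overlapped in range were GAS6 and PROS1 and MERTK and TYRO3 in both derivatives, PROS1 and TYRO3 in PR1, and TYRO3, GAS6, AXL and MERTK in parental cells. GAS6 RNA stood below AXL RNA in the derivatives: GAS6 over AXL was 0.273, 0.904 and 0.662 in PR2 A, B and C, 0.368, 0.498 and 0.320 in PR1 and 1.19, 2.68 and 2.82 in parental cells. GAS6 and PROS1 summed to 39.5, 88.9 and 81.5 FPKM in PR2 A, B and C, above AXL in B and C. In PR1 the sums were 24.3, 29.8 and 24.1 FPKM, below AXL in each library. GAS6 exceeded PROS1 in all PR2 libraries (2.73, 2.25 and 1.34 times) and in PR1 A and B (4.42 and 1.38), but not in PR1 C (0.588) or in the parental libraries (0.945, 0.449 and 0.446).

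The libraries of a group differed from each other in a way that recurred with the letter. MERTK and PROS1 were lowest in A and highest in C in each group, and AXL and TYRO3 were highest in A in each group. For PROS1 the deviation of A from its group mean on the log2 scale was −0.97 in PR2, −0.96 in PR1 and −0.06 in parental cells. For AXL it was 0.40 in PR2, 0.51 in PR1 and 0.88 in parental cells. GAS6 followed no such pattern, since A was lowest in PR2 and highest in parental cells and PR1. What the letters stand for is not stated, and beyond the blocked fits and those leaving out A their part was not tested. Without the A libraries PROS1 and MERTK passed in PR1 against parental cells (log2 differences 1.42 and 0.87, limma adjusted p = 0.0030 and 0.030).

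**Figure D3:**
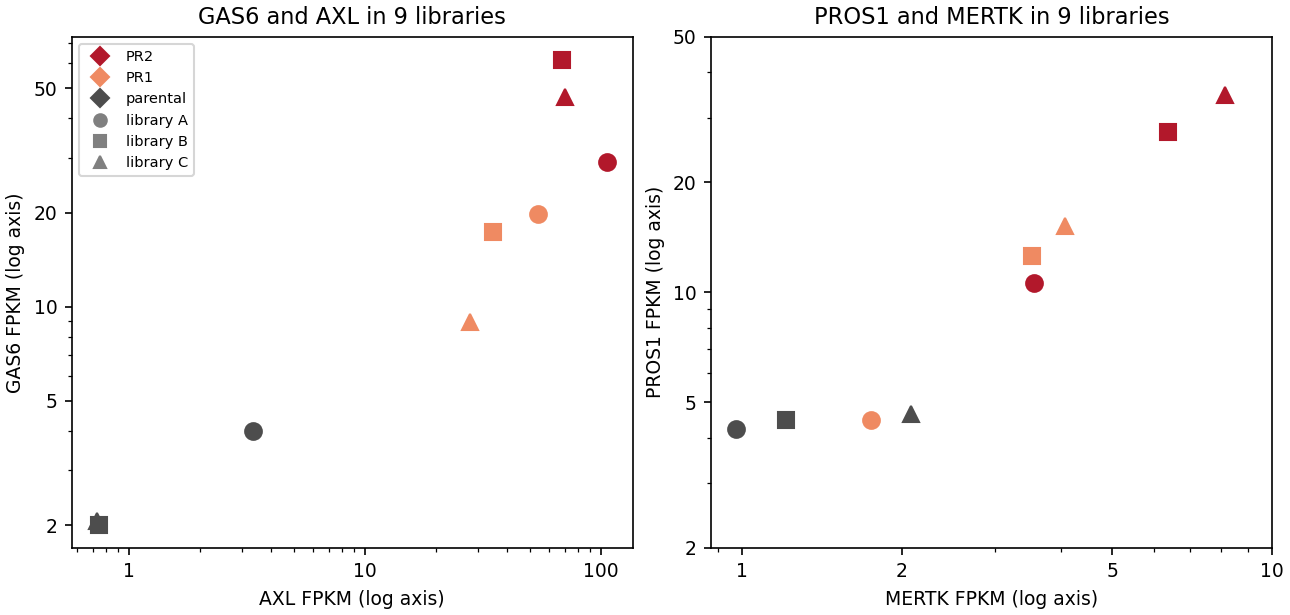
FPKM of GAS6 against AXL (left) and of PROS1 against MERTK (right) in the 9 libraries, both on log axes, with colours for groups and shapes for letters. PR2 A, with 3.56 FPKM of MERTK and 10.6 of PROS1, lies beside PR1 B and C rather than beside the other PR2 libraries.

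GAS6 shares its start region with a divergent non-coding RNA, which RefSeq names GAS6-DT and the table GAS6-AS2. The starts lie 101 bases apart on opposite strands. GAS6-AS2 was at 0.368, 0.932 and 1.35 FPKM in PR2, 0.158, 0.349 and 0.130 in PR1 and 0.0678, 0.0133 and 0.0556 in parental cells, too low for the test. Its groups did not overlap. GAS6-AS1, an antisense gene of the same locus, had 0.0812 FPKM at most. Among the protein-coding genes next to the 5 loci, 2 on each side of a locus, 12 of 20 looked up were tested. In PR2 against parental cells 2 of the 12 were higher and 0 lower, against 13.6% and 9.83% of all rows. In PR1 the counts were also 2 and 0, against 7.56% and 7.98%. In PR2 against PR1 they were 0 and 0, against 11.0% and 8.92%. RASA3, a GTPase-activating protein gene near GAS6, was higher in both derivatives, with 2.77 ± 0.24 FPKM in PR2, 2.45 ± 0.75 in PR1 and 0.770 ± 0.12 in parental cells (log2 differences 1.09 and 0.94 against parental cells, limma adjusted p = 0.0014 and 0.0050). LTK, a receptor kinase gene near TYRO3, was higher in both as well, at 1.39, 0.921 and 0.291 FPKM on average in PR2, PR1 and parental cells (0.88 and 0.57, limma adjusted p = 0.0024 and 0.030), although the PR1 call was lost without any of 5 single libraries. The genes flanking AXL did not pass. HNRNPUL1 stood at 116 ± 5.89 FPKM in PR2, 158 ± 16.0 in PR1 and 147 ± 16.9 in parental cells, CYP2S1 at 14.4 in PR2, 14.3 in PR1 and 8.43 in parental cells, and CCDC97 at 15.7 in PR2, 16.7 in PR1 and 18.7 in parental cells.

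Among 58 receptor tyrosine kinases AXL ranked 1, 3 and 3 by FPKM in PR2 A, B and C, 3, 6 and 7 in PR1 and 22, 30 and 31 in parental cells. DDR1 is listed at 0 in every library and may be a failed estimate, so a rank could be 1 too high. The highest means were those of ERBB2 (109 ± 17.3 FPKM), MET (89.7 ± 13.9) and AXL in PR2, of MET (110 ± 13.3), EPHA2 (59.2 ± 9.04) and ERBB2 (56.6 ± 9.49) in PR1, and of MET (87.2 ± 21.9), ERBB2 (80.9 ± 7.86) and EPHA2 (57.6 ± 9.33) in parental cells. MERTK ranked 16 to 22 in PR2, 19 to 25 in PR1 and 23 to 29 in parental cells, and TYRO3 18 to 23 in PR2, 19 to 23 in PR1 and 20 to 21 in parental cells.

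Of the 33 kinases tested, 9 were higher and 6 lower in PR2 against parental cells, where 23.4% of all rows were called in either direction. In PR1 7 were higher and 4 lower (15.5%), but 3 and 3 without parental B and 4 and 3 without PR1 B or PR1 C. AXL had the largest rise in both, and the next was MERTK in PR2 and ROR1 in PR1 (log2 difference 0.99, limma adjusted p = 0.015, lost without 2 single libraries at up to 0.064). EPHB1, an ephrin receptor gene, fell by 2.51 in PR2 and fell by 2.16 in PR1 (limma adjusted p = 1.17e-06 and 2.79e-06). PTK7 (1.45) and KIT (1.43) rose in PR2 as well. EGFR, which is known to associate with AXL, was higher in both derivatives, with a log2 difference of 1.39 in PR2 and 0.86 in PR1. In PR2 against PR1 5 kinases were higher and 4 lower (19.9% of rows called), with EPHA10 highest at 1.73, and AXL ranked 3 by difference without passing. These counts were 5 and 2 without PR1 B or PR1 C and 8 and 2 without PR2 A. Of the lower kinases, ERBB3 and EPHA4 lost their calls without 7 and 4 single libraries.

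**Figure D4:**
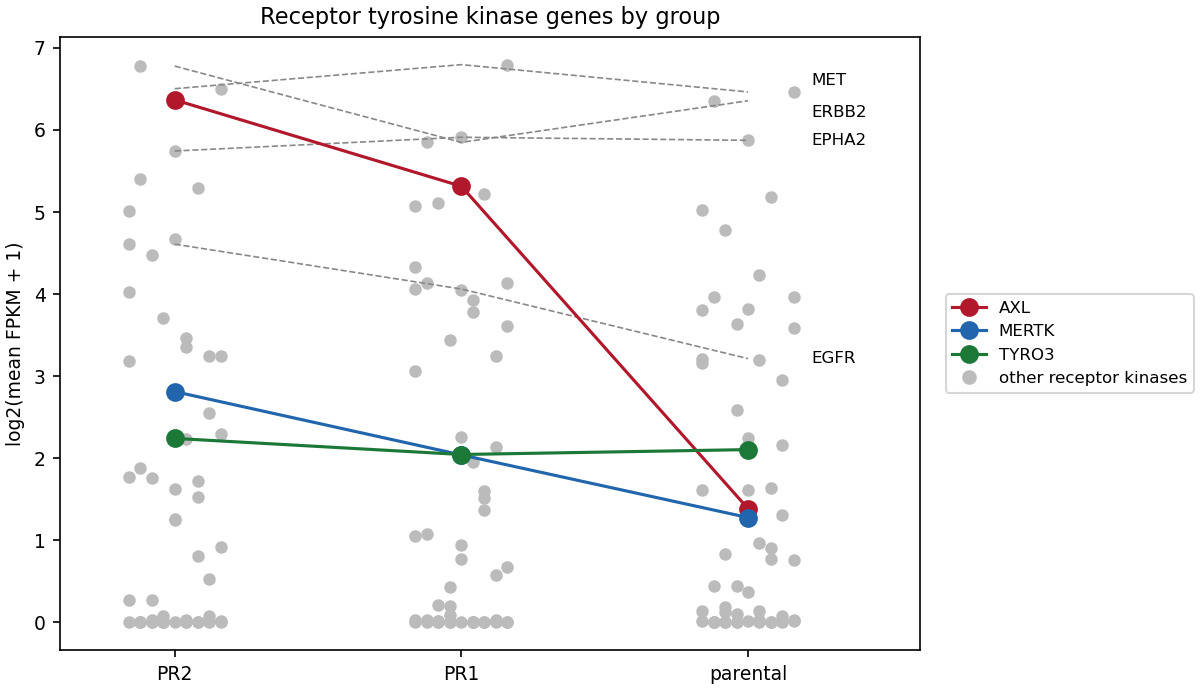
Mean level of 58 receptor tyrosine kinase genes as log2(mean FPKM + 1) in PR2, PR1 and parental cells, with coloured points and lines for AXL, MERTK and TYRO3, grey points for the others and dashed lines for MET, ERBB2, EPHA2 and EGFR. AXL lies near MET and ERBB2 in PR2 and far below both in parental cells, and TYRO3 lies near 2 in all groups.

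AXL is also known to work with other surface proteins, and 11 of 14 such partners were tested. In PR2 against parental cells 2 were higher and 3 lower (23.4% of all rows called), in PR1 2 and 1 (15.5%), and in PR2 against PR1 2 and 2 (19.9%), the last falling to 1 and 1 without PR1 B. The PR1 counts fell to 1 and 1 without parental B, parental C, PR1 B, PR1 C or PR2 B. Of the PR1 rises, that of IGF1R lost its call without 8 single libraries, with limma adjusted p reaching 0.15. The integrin gene ITGB1 had 356 ± 26.3 FPKM in PR2, 184 ± 25.3 in PR1 and 123 ± 37.8 in parental cells, a rise of 1.57 in PR2 (limma adjusted p = 0.00070). The insulin receptor gene INSR had log2 differences of −1.01 in PR2 and −1.47 in PR1, and that of RET was −0.71 in PR2 (limma adjusted p = 0.010, 0.0022 and 0.0040). ERBB2 was higher in PR2 than in PR1 by 0.93 (limma adjusted p = 0.0060).

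Downstream of the receptors, 27 of 32 adaptors and effectors were tested. In PR2 against parental cells 2 were higher and 4 lower (23.4% of all rows called), in PR1 1 and 4 (15.5%), and in PR2 against PR1 6 and 2 (19.9%), so that against parental cells the shares were near those of all rows. The last counts were 2 and 2 without PR1 B and 3 and 2 without PR2 C. PIK3R1, the regulatory subunit of PI3 kinase that binds activated receptors, was at 4.87 ± 0.42 FPKM in PR2, 5.34 ± 1.80 in PR1 and 13.8 ± 2.50 in parental cells, and fell by 1.32 and fell by 1.24 against parental cells (limma adjusted p = 0.0015 and 0.0034). The ubiquitin ligase genes CBLB and CBL, whose products act on activated receptors, differed in direction in PR2, by −1.41 and 0.82 (limma adjusted p = 0.0058 and 0.014, the CBL call lost without 2 single libraries at up to 0.056). The kinase gene SRC fell in PR1, at 2.33 ± 0.22 FPKM against 10.1 ± 1.82 in parental cells, and stood at 8.51 ± 2.01 in PR2. The adaptor gene GRB2 fell in PR1 as well (33.2 ± 2.87 against 60.3 ± 4.80 FPKM in parental cells). VAV1, an exchange factor of blood cells, rose in PR1 to 12.5 ± 0.97 FPKM, against 3.40 ± 0.56 in parental cells, and was at 2.58 ± 0.34 in PR2. SOCS1 and SOCS3, cytokine signalling suppressors induced through TAM receptors in dendritic cells of mice, passed in no comparison.

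AXL and MERTK can be cut from the cell surface by ADAM10 and ADAM17, metalloproteases that TIMP proteins inhibit. All 13 genes of this group were tested, and 4 rose and none fell in PR2 (23.4% of all rows called), 1 rose and 1 fell in PR1 (15.5%), and 4 were higher and 1 lower in PR2 against PR1 (19.9%). Of the PR2 rises, those of RHBDF2 and APH1A lost their calls without 4 and 8 single libraries, and 2 rises were left without parental C or PR2 B. TIMP2 had 176 ± 49.2 FPKM in PR2, 20.1 ± 4.21 in PR1 and 25.7 ± 10.8 in parental cells, and rose by 2.76 ± 0.30 in PR2 (limma adjusted p = 0.00017). TIMP3, an inhibitor of ADAM17, rose there by 0.96 (limma adjusted p = 0.0096). The proteases themselves had higher means in PR2 but did not pass without the letter as a block. ADAM10 was at 37.9 ± 4.97 FPKM against 24.6 ± 6.50 in parental cells and ADAM17 at 14.2 ± 0.89 against 9.48 ± 2.41 (limma adjusted p = 0.053 and 0.094). With the letter as a block 7 genes of the group rose in PR2 and none fell, where 4113 of 12011 rows were called. RHBDF1 and RHBDF2, which guide ADAM17 to the surface, went opposite ways in PR1, by 1.05 and −1.04 (limma adjusted p = 0.0057 and 0.0027), and RHBDF2 was higher in PR2 than in PR1 by 1.69.

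Carboxylation of the ligands needs GGCX, whose level was 9.84 ± 1.08 FPKM in PR2, 8.13 ± 0.063 in PR1 and 9.58 ± 0.66 in parental cells, with no call. VKORC1, which recycles vitamin K, falls in a row combined with PRSS53 and was not split. Of the 9 genes of this group that were tested, 3 fell in PR2 and none rose (23.4% of all rows called), 1 rose in PR1 and none fell (15.5%), and 2 were lower in PR2 than in PR1 (19.9%). The NQO1 fall in PR2 was lost without 7 single libraries. PCSK6, a propeptide convertase gene, was at 0.267 ± 0.082 FPKM in PR2, 3.66 ± 0.43 in PR1 and 3.56 ± 0.60 in parental cells (log2 difference −1.84 in PR2, limma adjusted p = 2.43e-05). PCSK5 had log2 differences of −0.65 in PR2 and 0.87 in PR1 (limma adjusted p = 0.0062 and 0.0021). FURIN, the most abundant convertase of the list, had a log2 difference of −0.07 in PR2 and −0.06 in PR1 and did not pass.

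Of 13 other genes for Gla proteins, 4 were tested, and 3 rose in PR2 (13.6% of all rows), 2 in PR1 (7.56%) and 1 in PR2 against PR1 (11.0%), and none fell. The PR1 count was 1 without parental B, parental C or PR1 C. PRRG2, a transmembrane Gla gene, had log2 differences of −0.51 in PR2 and −0.17 in PR1 and was not called. PROC, the gene of protein C, an anticoagulant protease for which protein S is the cofactor, had 3.93 ± 0.43 FPKM in PR2, 1.11 ± 0.46 in PR1 and 0.748 ± 0.54 in parental cells, and rose by 1.54 in PR2 (limma adjusted p = 0.0011). The transmembrane Gla genes PRRG1 and PRRG4 rose by 1.26 and 1.18 in PR2 and by 0.79 and 1.09 in PR1. The PRRG1 call in PR1 was lost without 3 single libraries, at up to 0.069. Of 6 tested partners of protein S and protein C, 1 rose and 1 fell in either derivative (23.4% of all rows called in PR2 and 15.5% in PR1). The protein C receptor gene PROCR was at 5.11 ± 0.88 FPKM in PR2, 2.46 ± 0.45 in PR1 and 0.820 ± 0.53 in parental cells (1.78 and 0.96 against parental cells, limma adjusted p = 0.00031 and 0.014, the PR1 call lost without 1 single library at 0.052). In PR2 against PR1 PROCR alone of these partners was called (19.9% of all rows), higher by 0.82 (limma adjusted p = 0.0235). That call was lost when any of 4 single libraries was left out, with limma adjusted p reaching 0.086. C4BPB, whose product ties protein S to the complement regulator C4BP, fell by 1.90 in PR2 and fell by 1.59 in PR1 (limma adjusted p = 0.0010 and 0.0045).

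Phosphatidylserine reaches the outer membrane through scramblases. Of 9 tested genes of scramblases and their opposing flippases, 1 rose and 1 fell in PR2 (23.4% of all rows called), none was called in PR1 by limma (15.5%; 1, ANO6, had an unadjusted p under 0.05, at 0.026), and 1 was higher and 2 lower in PR2 against PR1 (19.9%). In PR2 against PR1 ANO6 and PLSCR4 were lost without 8 and 7. The scramblase gene ANO6 was at 19.0 ± 2.51 FPKM in PR2, 12.5 ± 2.94 in PR1 and 8.52 ± 1.03 in parental cells, a rise of 1.07 in PR2 (limma adjusted p = 0.0024). The flippase gene ATP8A1 fell there by 0.79 (limma adjusted p = 0.010). Among 6 tested genes of other phosphatidylserine receptors and bridges, 2 rose and 1 fell in PR2 (23.4% of all rows called), 1 rose and 2 fell in PR1 (15.5%), and 2 were higher in PR2 than in PR1 (19.9%). When parental B, PR1 A or PR1 C was left out, neither fall in PR1 was called, and none was higher in PR2 than in PR1 without PR1 A, PR2 B or PR2 C. EDIL3, a bridge between phosphatidylserine and integrins, had 81.5 ± 6.04 FPKM in PR2, 37.3 ± 4.04 in PR1 and 5.58 ± 4.03 in parental cells, and rose by 3.81 and 2.70 against parental cells (limma adjusted p = 4.01e-05 and 0.00060). Its call in PR2 against PR1, at 1.11, was lost when any of 6 libraries was left out, with limma adjusted p reaching 0.10. Its relative MFGE8 fell in PR1, at 28.2 ± 7.41 FPKM against 65.8 ± 5.38 in parental cells, but not when any of 4 single libraries was left out, with limma adjusted p reaching 0.086. ITGB3, the integrin subunit that pairs with the ITGAV product, fell by 2.77 in PR2 and fell by 2.33 in PR1, the PR1 call lost without 3 single libraries at up to 0.058, while ITGAV rose in PR2 by 0.96. LGALS3 (galectin-3), reported elsewhere as a MERTK ligand, fell by 1.11 in PR2, at 733 ± 149 FPKM against 1588 ± 364 in parental cells (limma adjusted p = 0.0058). TUB and TULP1, the other reported ligands, were too low for the test.

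**Figure D5:**
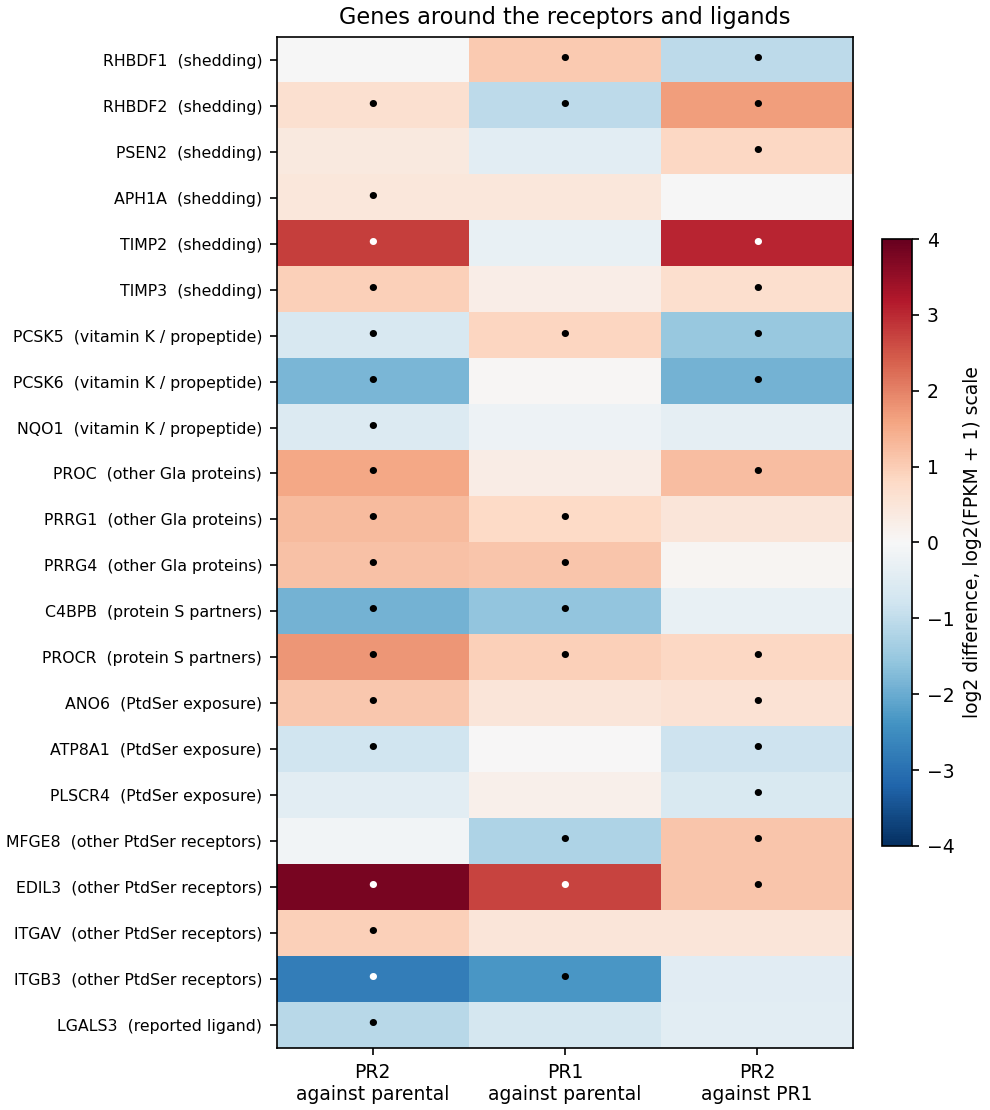
Log2 differences (colour scale, log2(FPKM + 1)) of 22 genes for receptor shedding, vitamin K and propeptide processing, other Gla proteins, protein S partners, phosphatidylserine (PtdSer) exposure and its other receptors and ligands, over parental cells in PR2 and in PR1 and in PR2 over PR1. Genes called in at least 1 comparison are drawn, a dot marks an adjusted p under 0.05, and EDIL3, PROCR, PCSK5 and RHBDF2 are marked in every column. Without certain single libraries the marks of EDIL3 and PROCR in PR2 over PR1 are lost. So are those of PROCR in PR1 and RHBDF2 in PR2 over parental cells.

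Of 20 tested genes of factors known to act on AXL transcription, 4 rose and 1 fell in PR2 (23.4% of all rows called), 2 rose and none fell in PR1 (15.5%), and 1 was higher and 2 lower in PR2 against PR1 (19.9%), shares near or below those of all rows. FOSL2, an AP-1 subunit gene, was at 60.6 ± 6.32 FPKM in PR2, 24.2 ± 1.45 in PR1 and 23.3 ± 7.27 in parental cells, and rose by 1.38 in PR2 (limma adjusted p = 0.0013). FOSL1 (1.88), SNAI2 (1.30) and TEAD1 (0.99) rose there too, and each missed the threshold when any of 4 single libraries was left out, with limma adjusted p reaching 0.11. In PR1, YAP1 rose by 0.73, and missed it when any of 7 was left out (limma adjusted p of up to 0.14). VIM, a mesenchymal gene kept in the same list, was at 2.83 ± 1.22 FPKM in PR2, 32.9 ± 25.8 in PR1 and 2.90 ± 1.93 in parental cells, and rose in PR1 by 2.96 (limma adjusted p = 0.0034). With the letter as a block, where 25.7% of all rows were called in PR1 against parental cells and 31.5% in PR2 against PR1, some list counts grew by over 1.5 times. In PR1 they came to 4 higher and 6 lower adaptors, 3 and 3 partners of AXL, 3 and 1 shedding genes and 1 and 0 scramblases and flippases. They also came there to 5 and 1 regulators of AXL and 0 and 1 reported other ligands (LGALS3). In PR2 against PR1 they came to 8 and 6 receptor kinases and 2 and 1 partners of protein S and protein C. In PR2 against parental cells the blocked fit called 4113 of 12011 rows. The counts that grew there came to 7 and 0 shedding genes, 6 and 2 regulators of AXL and 2 and 2 partners of protein S and protein C. ZEB1 and TWIST1 stayed under 0.2 FPKM on average in all groups.

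The genes most like each of AXL and GAS6 over the 9 libraries, by Pearson correlation of log2(FPKM + 1), are given as a description, since libraries of a group are alike for many genes. For AXL they were BDNF (0.996), KIRREL (0.996), ARHGEF26 (0.991), SLC44A2 (0.990) and NEXN (0.989). BDNF stood at 7.97 ± 1.47 FPKM in PR2, 5.56 ± 1.74 in PR1 and 0.874 ± 0.47 in parental cells. For GAS6 they were VCAN (0.987), AGRN (0.985), PROCR (0.983), CEP170 (0.979) and COL4A2 (0.979). VCAN stood at 11.5 ± 3.08, 6.78 ± 1.99 and 2.54 ± 0.34 FPKM in PR2, PR1 and parental cells, and COL4A2 at 56.1 ± 4.92, 16.3 ± 6.26 and 4.31 ± 1.98. MERTK and PROS1 each ranked 3 in the other's list (0.974).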

How the data were processed

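RNA from 9 libraries (3 each of PR2, PR1 and parental LC-2/ad cells) was extracted with a column kit and prepared with a TruSeq kit, per the labels' protocols. Tools listed in the submitters' processing notes are Cuffdiff 2.2.1, Cufflinks 2.2.1 and TopHat2 2.0.14, with GRCh37 (hg19) as build. The authors deposited 1 table, taken to hold FPKM values from its non-whole values and column sums. Annotation, multi-mapped reads and read number are not described in those notes or labels, so no counting interval could be made. Values of 0 in all libraries (5378 rows) can be failed estimates.

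Values were analysed as log2(FPKM + 1), a scale that understates changes of low genes, with limma 3.58.1 in R 4.3.3 (1 mean per group, intensity trend, two-sided). The fit was tested on simulated data. No columns were identical and none was left out. Figures and summaries used Python 3.11.15.

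The members and the 16 lists (252 entries) were chosen with earlier results of these data known. A row entered the tests at 1 FPKM in at least 3 libraries. Named genes were the 5 members, the called list members with the largest differences (up to 4 a list and comparison) plus lower-ranked or uncalled ones chosen after their values were seen (among them CBL, ADAM10, ADAM17, GGCX, FURIN, SOCS1, SOCS3, ZEB1 and TWIST1), the highest kinases, locus neighbours and the 5 genes most like AXL and GAS6. The result of 1 further gene is not reported here. Neighbours were read from RefSeq, GRCh38.p14, for order only. Relative depth was the inverse of the modal ratio to parental A of values under 0.05 FPKM.

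Same-letter libraries deviated together in PR1 and parental cells (correlation across genes 0.31, 0.48 and 0.16 for A, B and C) and in PR2 and PR1 (0.53, 0.54 and 0.25). The main fit had no block for the letter, so its calls take no account of this. Fits with the letter as a block are given beside it for these comparisons. In PR2 and parental cells the correlations were 0.30, 0.42 and 0.014, and the blocked fit there counts only among the refits. Alternatives were the pseudocount, the filter, scaling, the letter as a block, the trend, the libraries fitted, each library left out and the A libraries left out.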

Additional observations from a re-analysis of the deposited data

Results flagged for a closer look

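The rise of GAS6 against parental cells differed between the derivatives in the direct test, and was larger in PR2 than in PR1 by a log2 of 1.52 (limma adjusted p = 0.012). All PR2 libraries (28.9 to 61.6 FPKM) were above all PR1 libraries (8.92 to 19.8 FPKM), and the smallest gap was between PR2 A and PR1 A. In each of the fits without 1 library the difference stayed past the threshold, with limma adjusted p of 0.0059 to 0.047.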

How the results depend on the processing

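Across 279 refits of the 5 genes, 262 kept direction or an uncalled state, 17 moved past the threshold and none lost a call or reversed one. The calls for AXL and GAS6 in both derivatives, for MERTK and PROS1 in PR2 and for GAS6 in PR2 against PR1 held in every refit that tested them. With the letter as a replicate block, MERTK (0.74) and PROS1 (0.97) passed in PR1 against parental cells, AXL (1.08), MERTK (0.76) and PROS1 (1.10) passed in PR2 against PR1, and 3088 and 3789 genes changed in those comparisons against 1866 and 2395. Without the A libraries the same 5 passed, at 0.87, 1.42, 1.13, 0.78 and 1.10. AXL in PR2 against PR1 also passed after quantile normalization (1.17) and in the fit of the 6 libraries compared (1.08). With the filter at 5 FPKM, which tests fewer genes and left MERTK and TYRO3 untested, 1207, 1811 and 1573 genes changed in PR1 and PR2 against parental cells and PR2 against PR1. With single libraries left out, the counts ranged over 1141 to 2027, 1805 to 2922 and 1420 to 2446, PROS1 in PR1 over 0.66 to 1.45, and in PR2 against PR1 AXL over 0.87 to 1.33, MERTK over 0.50 to 1.04 and PROS1 over 0.62 to 1.58. The first count was 1166 without parental B and 1141 without PR1 C, the second 1870 without parental B and 1805 without PR2 C, and the third 1592 without PR1 B, 1464 without PR2 B and 1420 without PR2 C. The cause of these moves was not tested. At a pseudocount of 0.1 the AXL rise was 5.89 in PR2 and 4.80 in PR1. No scaling moved the median of all genes by over 0.1. The read number is unknown, so the counting error of the low parental AXL values could not be given.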
